A study of Mus musculus with 8 samples.

Results

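The 10 genes described here build the collagen fibril of connective tissue. They are Col1a1, Col1a2, Col3a1, Col5a1 and Col5a2, which encode fibril-forming collagen chains, Lox, Loxl1 and Loxl2, which encode cross-linking enzymes, and Serpinh1 and Sparc, whose proteins bind collagen on its way to the fibril. They were taken by symbol from a table of raw counts for 12171 genes, and all 10 were in it. The counts come from RNA-seq of the quadriceps (QUAD) of 8 male C57BL/6J mice, with 1 library per mouse. All 8 mice, bought at 6 weeks of age and acclimated for 1 week, were given D-galactose (D-gal) under the skin at 100 mg/kg daily for 12 weeks, a sugar exposure used to bring on features of ageing. The 4 D-gal + MSCs mice received mesenchymal stromal cells from human umbilical cord into the quadriceps and 2 other hind limb muscles, in 6 rounds spaced 7 days apart with 1000000 cells per mouse. The 4 D-gal + PBS mice received the same volume of saline without cells. Both groups carried the D-gal exposure, so the comparison bears on the injected cells and not on D-gal, and mice without D-gal were not analysed here. Reads were aligned to the mouse genome, and whether reads from the injected human cells were counted was not tested.

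In muscle, fibrillar collagen is made mainly by fibroblasts of the connective tissue around the fibres and by tendon cells, and little of it by the fibres themselves. Collagen I is built from chains of Col1a1 and Col1a2, collagen III from Col3a1 alone, and collagen V from Col5a1 with Col5a2, and fibrils of muscle mix these types. The chains are folded in the endoplasmic reticulum with the help of the chaperone HSP47, the product of Serpinh1, exported, trimmed and assembled, and lysyl oxidases then join the molecules by covalent cross-links. Fibrosis is the excess of this matrix.

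In D-gal + MSCs mice the mean of every one of these 10 genes was lower than in D-gal + PBS mice, at 61.7% (Col3a1) to 79.3% (Sparc) of the D-gal + PBS mean. No gene passed the test across all genes, and for all 10 the values of the groups overlapped. D-gal + MSCs mouse 3 lay within the D-gal + PBS range for every gene but Serpinh1, and D-gal + PBS mouse 4 was the lowest of its group for 8 of the 10.

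Totals ran from 32772221 to 40057968 counts per library. Single genes of the 10 held from 109 counts (Loxl2 in D-gal + MSCs mouse 4) to 15062 counts (Sparc in D-gal + PBS mouse 3), so counting error was small beside the spread between mice. Mitochondrially encoded genes took 13.9% to 18.6% of counts in D-gal + PBS mice and 22.6% to 36.6% in D-gal + MSCs mice, with the highest share in D-gal + MSCs mouse 4. That mouse also had the lowest scaling factor (0.760) and the lowest level of all 10 genes. Its part in the result was not tested beyond leaving it out, as given below for the 10 genes and for some of the lists.

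The DNA before 5 of the 10 genes was in the promoter table of RefSeq (build GRCm38.p6), and 4 of these stretches are shown, because each holds at least 1 of the motifs searched. The count table was made on GRCm39, so these positions belong to the RefSeq table only. Each line gives the 250 bases before the annotated start, 5′ to 3′ on the gene's strand, with matches on either strand to any of 4 motifs in capitals. The motif CCAAT is the core bound by NF-Y. The motif GGGCGG is the core bound by Sp1. The motif TATAAA has the letters of a TATA box, and whether a match works as one was not tested. The motif GAANNTTC holds a pair of the units that heat shock factor binds, and N stands for any base.
Col1a2: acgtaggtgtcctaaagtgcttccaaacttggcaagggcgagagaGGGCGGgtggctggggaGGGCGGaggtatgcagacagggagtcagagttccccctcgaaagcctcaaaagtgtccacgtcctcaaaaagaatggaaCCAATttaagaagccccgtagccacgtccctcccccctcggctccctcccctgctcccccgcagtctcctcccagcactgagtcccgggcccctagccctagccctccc
Col3a1: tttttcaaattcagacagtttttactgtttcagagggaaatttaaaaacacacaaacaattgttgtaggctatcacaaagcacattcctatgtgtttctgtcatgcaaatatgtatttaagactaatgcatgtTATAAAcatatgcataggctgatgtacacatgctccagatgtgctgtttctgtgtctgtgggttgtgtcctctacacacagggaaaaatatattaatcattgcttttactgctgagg
Col5a1: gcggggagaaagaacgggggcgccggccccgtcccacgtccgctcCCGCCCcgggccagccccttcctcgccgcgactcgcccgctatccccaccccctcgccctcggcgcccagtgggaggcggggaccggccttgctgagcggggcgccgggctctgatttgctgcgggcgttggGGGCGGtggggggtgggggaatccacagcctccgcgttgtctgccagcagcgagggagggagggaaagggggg
Serpinh1: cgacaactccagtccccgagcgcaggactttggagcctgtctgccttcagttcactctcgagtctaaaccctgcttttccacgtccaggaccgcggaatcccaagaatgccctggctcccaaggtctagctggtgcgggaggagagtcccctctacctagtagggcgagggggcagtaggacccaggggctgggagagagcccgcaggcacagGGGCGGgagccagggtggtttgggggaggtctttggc

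The Col1a2 stretch lay at chr6:4505368-4505617 on the plus strand, Col3a1 at chr1:45311288-45311537 plus, Col5a1 at chr2:27886175-27886424 plus and Serpinh1 at chr7:99353240-99353489 minus. Motifs were searched in the window of 300 bases from 250 before to 50 after the start, with the start base counted as 0. Base composition differed widely, with a GC content of 37.7% in Col3a1, 61.0% in Col1a2, 62.3% in Serpinh1 and 75.0% in Col5a1 beside a median of 52.7% over 32851 windows. Col3a1 held TATAAA, at -117, a motif present in 13.6% of all windows. Col1a2 held CCAAT at -109 and again at the start base, which is not printed, and CCAAT was present in 37.4% of windows. GGGCGG, present in 35.7% of windows, occurred 2 times in Col1a2, 2 times in Col5a1 and 1 time in Serpinh1. GAANNTTC, present in 7.86% of windows, was in none of these 4 windows nor in that of Sparc, which held none of the 4 motifs. Other pairings of the heat shock units were not searched, so this does not show that such a site was absent. A match is a description of letters and not of a bound site.

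Levels are given as counts per 1000000 of the library after TMM scaling (CPM). A log2 fold change sets D-gal + MSCs mice over D-gal + PBS mice, so it is negative where the gene is lower after the cells, and comes from edgeR's quasi-likelihood test. To set the 10 genes against each other, CPM was divided by the length in kilobases of the annotated transcript with the longest coding sequence. On this scale Sparc was the highest in D-gal + PBS mice, at 229 ± 58.7 CPM per kilobase (SD, n = 4), followed by Serpinh1 at 61.3 ± 9.07, Col3a1 at 43.6 ± 10.6, Col1a2 at 31.4 ± 11.8 and Col1a1 at 14.7 ± 6.70. The remaining genes were lower, with Loxl1 at 5.61 ± 1.12, Col5a2 at 4.88 ± 0.878, Lox at 4.54 ± 1.44, Col5a1 at 3.39 ± 0.569 and Loxl2 at 2.12 ± 0.535 CPM per kilobase. The order was the same by the means of D-gal + MSCs mice, where Sparc stood at 182 ± 67.2 and Serpinh1 at 38.6 ± 14.6 CPM per kilobase. In D-gal + PBS mice the means of Loxl1, Col5a2, Lox and Col5a1 each lay within 1 SD of the next of these 4 and were not ranked apart, while the other neighbours lay further apart than 1 SD. Lengths rest on the annotation, and with the length of all exons joined Lox and Col5a2 changed places and the spacing changed. In D-gal + PBS mice Sparc then stood at 82.6 CPM per kilobase and Serpinh1 at 57.0. Col1a2 and Col1a1 then lay close together at 13.5 and 13.3. By the means of D-gal + MSCs mice Col5a1 (2.38) then also stood above Col5a2 (2.36).

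Collagen I, the main fibril collagen of skin, bone and tendon, varied widely between mice. Col1a1 stood at 116, 77.0, 119.8 and 35.0 CPM in D-gal + PBS mice 1 to 4 and at 46.1, 58.4, 103 and 28.7 CPM in D-gal + MSCs mice 1 to 4. The high values came from D-gal + PBS mice 1 and 3 and D-gal + MSCs mouse 3, the low ones from mouse 4 of each group, and the groups overlapped. The means were 87.0 ± 39.7 and 59.0 ± 31.6 CPM (SD, n = 4), with a log2 fold change of -0.56 (SE 0.49, 95% interval -1.71 to 0.59, edgeR unadjusted p = 0.291, adjusted p = 0.737). Col1a2, the partner chain, stood at 201, 155, 230.3 and 85.2 CPM in D-gal + PBS mice and at 91.8, 108, 199 and 56.1 CPM in D-gal + MSCs mice. The mice of each group stood in the same order as for Col1a1, again with overlap. Its log2 fold change was -0.56 (SE 0.43, 95% interval -1.55 to 0.42, edgeR unadjusted p = 0.223, adjusted p = 0.687). The highest mouse exceeded the lowest of its group 3.42 times (D-gal + PBS) and 3.58 times (D-gal + MSCs) for Col1a1, more than the means of the groups differed.

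Col3a1, which encodes the chain of collagen III, a collagen of loose and early repair matrix, had the largest log2 fold change of the 10. It stood at 303, 249.6, 255 and 162 CPM in D-gal + PBS mice and at 129.8, 131, 245 and 93.6 CPM in D-gal + MSCs mice. D-gal + MSCs mouse 3 alone reached the D-gal + PBS mice, above mouse 4 of that group and just below mouse 2, and the other D-gal + MSCs mice lay below all 4 of them. The means were 243 ± 58.7 and 150 ± 65.6 CPM (SD, n = 4). The log2 fold change was -0.70 (SE 0.29, 95% interval -1.34 to -0.05), with an edgeR unadjusted p of 0.0369 and an adjusted p of 0.426.

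Collagen V starts fibrils and limits their width, and its chains varied least among the collagens. Col5a1 stood at 28.2, 33.6, 30.0 and 22.2 CPM in D-gal + PBS mice and at 19.0, 17.8, 28.6 and 15.4 CPM in D-gal + MSCs mice. Col5a2 stood at 38.1, 31.98, 34.8 and 24.5 CPM in D-gal + PBS mice and at 21.5, 20.4, 32.3 and 16.5 CPM in D-gal + MSCs mice. For both, mice 1, 2 and 4 of the D-gal + MSCs group lay below every D-gal + PBS mouse and mouse 3 lay among them. The log2 fold change was -0.50 for Col5a1 (SE 0.20, 95% interval -0.92 to -0.07, edgeR unadjusted p = 0.0275, adjusted p = 0.409). For Col5a2 it was -0.51 (SE 0.21, 95% interval -0.96 to -0.06, edgeR unadjusted p = 0.0297, adjusted p = 0.413). Col5a2 lies beside Col3a1 on chromosome 1, on the opposite strand and with 0 protein-coding genes between them in GENCODE vM21. This pair had the highest correlation of log2 CPM among the 45 pairs of members, a Pearson r of 0.997 over the 8 mice, given as a description.

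**Figure D1:**
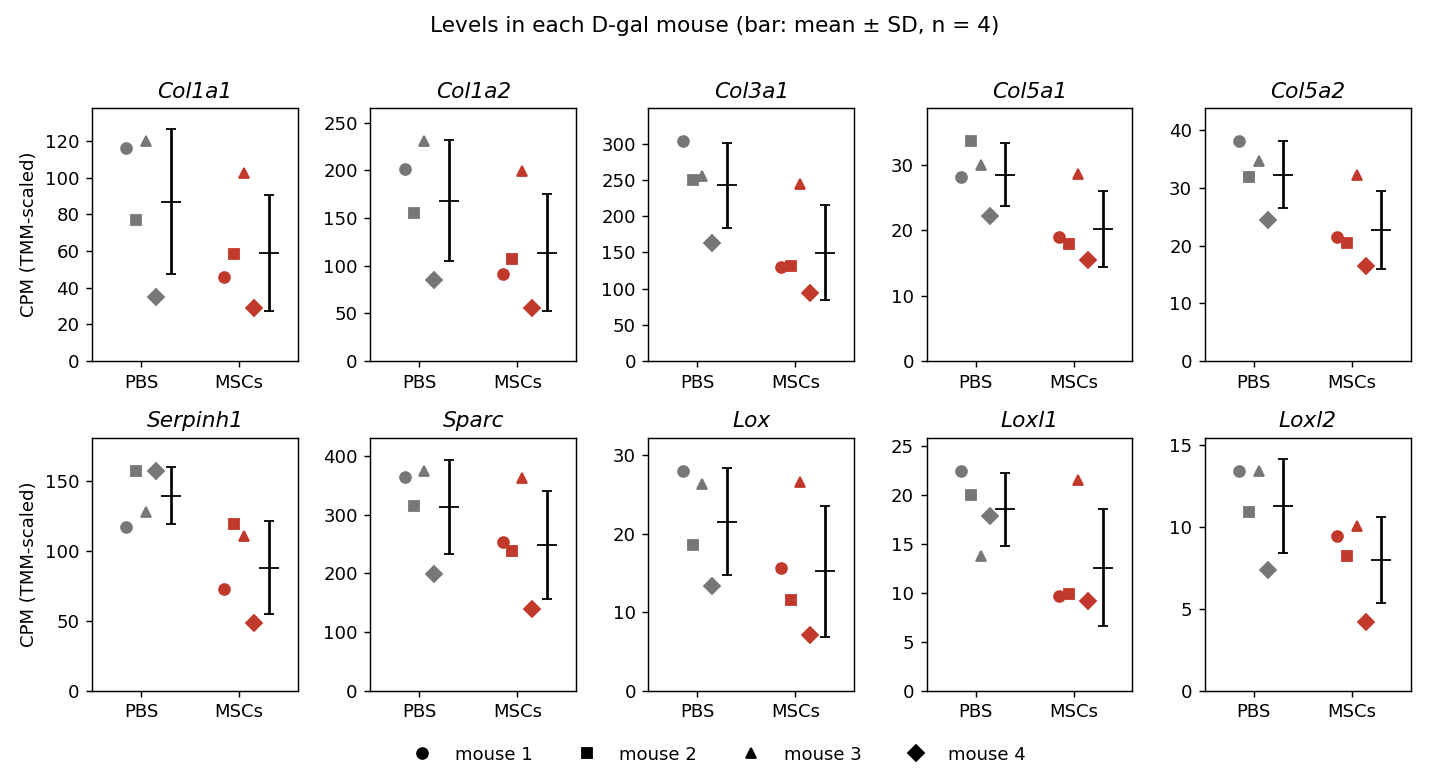
Levels of the 10 genes in each mouse. The y axes show CPM after TMM scaling and start at 0, points are mice (marker shape gives the mouse number, grey D-gal + PBS, red D-gal + MSCs), and black bars are the mean ± SD of 4 mice. D-gal + MSCs mouse 3 sits within the D-gal + PBS range in every panel but that of Serpinh1, and D-gal + MSCs mouse 4 is the lowest of all 8 mice in every panel.

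Serpinh1 encodes HSP47, a collagen-specific chaperone of the endoplasmic reticulum and a member of the heat shock genes. It stood at 117, 157, 127 and 157 CPM in D-gal + PBS mice and at 72.8, 119, 111 and 48.0 CPM in D-gal + MSCs mice. D-gal + PBS mouse 4, the lowest of its group in 8 of the 10 genes, was here next to the highest, and only D-gal + MSCs mouse 2 reached above a D-gal + PBS mouse. The means were 139 ± 20.6 and 87.7 ± 33.3 CPM (SD, n = 4). The log2 fold change was -0.67 (SE 0.26, 95% interval -1.24 to -0.10), with an edgeR unadjusted p of 0.0259, the smallest of the 10, and an adjusted p of 0.398.

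Because Serpinh1 answers to heat shock factor as well as to collagen synthesis, it was set beside 11 heat shock genes, a list chosen after its values had been seen. Their summed level was 1565, 2372, 1677 and 3272 CPM in D-gal + PBS mice and 1314, 1926, 1638 and 1539 CPM in D-gal + MSCs mice. D-gal + PBS mice 2 and 4, the 2 mice with the highest Serpinh1, also had the highest heat shock sums. In every mouse Hspa8 was the largest part of the sum. Hspa1a, the inducible HSP70, was at 78.5 CPM in D-gal + PBS mouse 2 and 189 CPM in mouse 4, against 6.89 to 30.2 CPM in the other 6 mice. Not every gene of the list followed these 2 mice. Bag3 was at 153 CPM in D-gal + PBS mouse 2 and 163 CPM in D-gal + MSCs mouse 2. Hspa4l was highest in D-gal + MSCs mice 2 (15.4 CPM) and 4 (13.0 CPM). D-gal + MSCs mouse 4 had the lowest Serpinh1, with a heat shock sum within the range of the others and the lowest Hspa1a (6.89 CPM). Its Hspa1b, Hsph1 and Hsp90aa1 were also the lowest of all mice, while its Hspd1 was the highest (238 CPM). Without D-gal + PBS mouse 4 the log2 fold change of Serpinh1 was -0.61 (edgeR unadjusted p = 0.0661, adjusted p = 0.509). It was -0.60 without D-gal + PBS mouse 2 (edgeR unadjusted p = 0.0592) and -0.59 without D-gal + MSCs mouse 1 (edgeR unadjusted p = 0.0713). Without any other single mouse the unadjusted p stayed under 0.05. The part of the heat shock level in the difference was not tested.

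**Figure D2:**
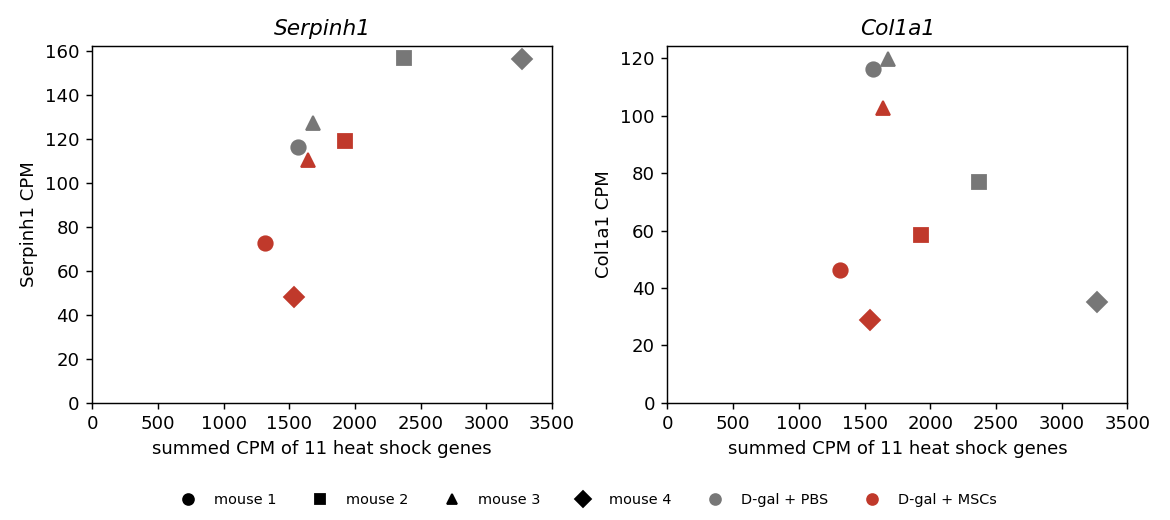
Serpinh1 and Col1a1 against the summed level of 11 heat shock genes, in CPM on both axes; each point is a mouse (marker shape gives the mouse number, grey D-gal + PBS, red D-gal + MSCs). D-gal + PBS mouse 4 has the highest heat shock sum (3272 CPM) with a high Serpinh1 (157 CPM) and a low Col1a1 (35.0 CPM).

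Sparc encodes a matricellular protein that binds collagen and shapes its assembly. It stood at 363, 315, 374 and 199 CPM in D-gal + PBS mice and at 253, 238, 363 and 138 CPM in D-gal + MSCs mice. Mice 1, 2 and 3 of the D-gal + MSCs group all lay above D-gal + PBS mouse 4, and mouse 3 lay near the top of the D-gal + PBS range. Sparc had the smallest difference of the 10, with means of 313 ± 80.2 and 248 ± 91.8 CPM (SD, n = 4) and a log2 fold change of -0.33 (SE 0.28, 95% interval -0.96 to 0.29, edgeR unadjusted p = 0.262, adjusted p = 0.714). Endothelial cells make Sparc as well as fibroblasts do.

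The lysyl oxidases convert lysines of collagen and elastin into reactive aldehydes. Lox, the founding enzyme, stood at 28.0, 18.5, 26.2 and 13.3 CPM in D-gal + PBS mice and at 15.7, 11.5, 26.5 and 7.08 CPM in D-gal + MSCs mice. It had the pattern of Col1a1, high in D-gal + PBS mice 1 and 3 and in D-gal + MSCs mouse 3, with overlap of the groups and a log2 fold change of -0.50 (SE 0.39, edgeR unadjusted p = 0.238, adjusted p = 0.698). Loxl1, which is tied to elastic fibres, stood at 22.4, 19.9, 13.7 and 17.9 CPM in D-gal + PBS mice and at 9.70, 9.87, 21.5 and 9.11 CPM in D-gal + MSCs mice. Here 3 D-gal + MSCs mice were close together below all D-gal + PBS mice, and mouse 3 stood above 3 of the 4 D-gal + PBS mice. For Loxl1 the log2 fold change was -0.56 (SE 0.28, 95% interval -1.18 to 0.07, edgeR unadjusted p = 0.0741, adjusted p = 0.503). Loxl2, which cross-links collagen IV of basement membranes as well as fibrils, stood at 13.4, 10.9, 13.4 and 7.38 CPM in D-gal + PBS mice and at 9.42, 8.19, 10.01 and 4.17 CPM in D-gal + MSCs mice. All D-gal + MSCs values lay below the 3 higher D-gal + PBS mice and 3 of them above mouse 4, with a log2 fold change of -0.50 (SE 0.28, edgeR unadjusted p = 0.0986, adjusted p = 0.542).

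Over the 10 genes, 0 passed an adjusted p under 0.05 in edgeR, where 0% of all 12171 genes did, and 0 passed in DESeq2, where 1.08% of the genes given an adjusted p were called lower, and in limma-voom. At an unadjusted p under 0.05, 4 genes were lower in D-gal + MSCs mice (Col3a1, Col5a1, Col5a2 and Serpinh1) and 0 higher, beside 5.11% of all genes lower and 5.64% higher. With a change of 0.5 or more on the log2 scale required as well, 3 genes were lower (Col3a1, Col5a2 and Serpinh1) and 0 higher, beside 3.06% and 3.76% of all genes. All 10 log2 fold changes were negative, as were 50.5% over all genes, and their median was -0.54 beside -0.003 over all genes. The 10 genes are not independent of each other, since they moved together from mouse to mouse. For 0 of the 10 the D-gal + MSCs values lay wholly below the D-gal + PBS values, which held for 3.19% of all genes.

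The count at an unadjusted p turned on single mice. It was 0 without D-gal + PBS mouse 2 or without D-gal + MSCs mouse 1, and 1 (Serpinh1) without D-gal + PBS mouse 1 or 3 or without D-gal + MSCs mouse 2 or 4. Without D-gal + PBS mouse 4 it stayed at 4, with Loxl2 in place of Serpinh1. Without D-gal + MSCs mouse 3 it was 7, with Col1a2, Lox and Loxl1 added. Over all genes, the share lower at this threshold ran from 3.53% without D-gal + PBS mouse 2 to 6.02% without D-gal + MSCs mouse 3. All 10 estimates stayed negative whichever mouse was left out, with medians from -0.85 without D-gal + MSCs mouse 3 to -0.36 without D-gal + MSCs mouse 4. Scaled by library totals alone, the median over all genes itself shifted to -0.19 and that of the 10 genes to -0.70. Of 1819 genes at an unadjusted p under 0.05, 1564 were then lower, against 622 of 1308 with TMM. With mitochondrially encoded genes left out, 4 of the 10 genes were lower at an unadjusted p under 0.05, beside 5.09% of all genes, and their median was -0.53.

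**Figure D3:**
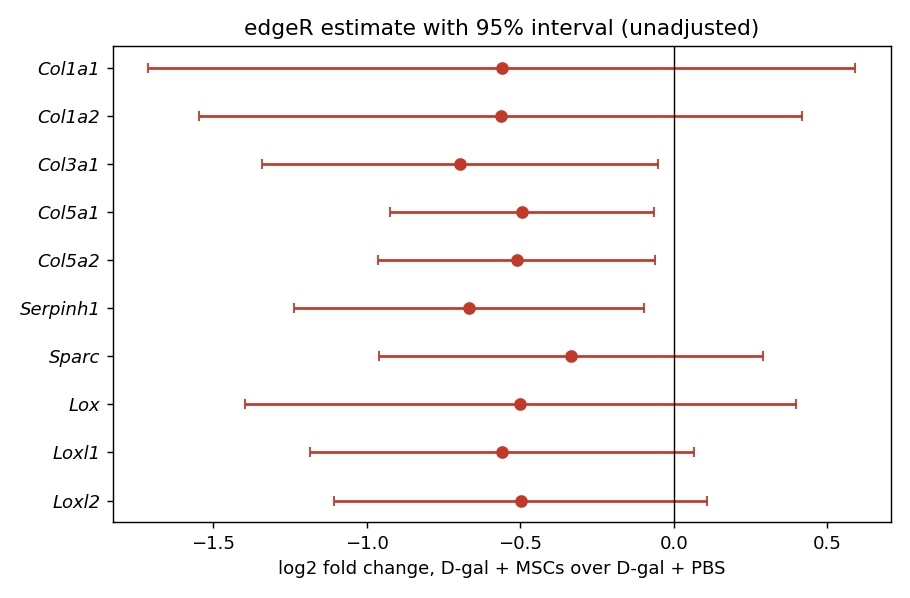
Log2 fold change of the 10 genes, D-gal + MSCs over D-gal + PBS, on the x axis. Points are edgeR estimates from 4 against 4 mice and bars are 95% intervals, not adjusted for the number of genes. All points lie left of 0, from -0.70 (Col3a1) to -0.33 (Sparc), and the bars of Col3a1, Col5a1, Col5a2 and Serpinh1 end before 0.

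**Figure D4:**
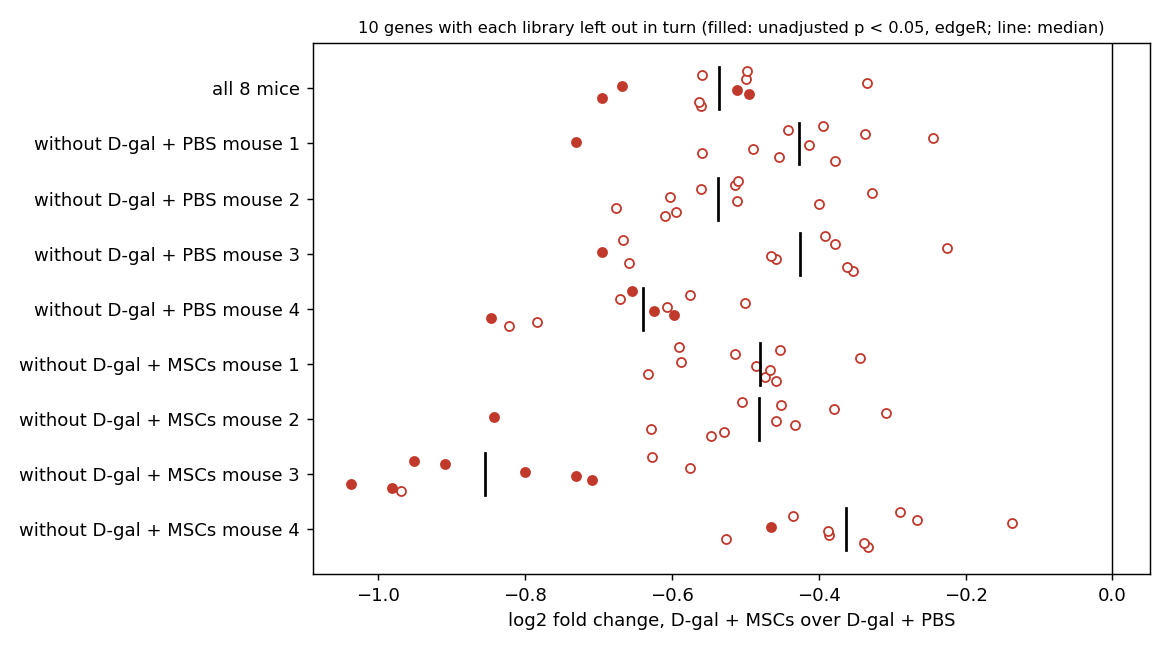
The same log2 fold changes with all 8 mice and with each mouse left out in turn. Each circle is a gene, filled where the edgeR unadjusted p is under 0.05, and the black line is the median of the 10. The median runs from -0.85 without D-gal + MSCs mouse 3 to -0.36 without D-gal + MSCs mouse 4.

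The 10 genes varied together over the mice. Summed, they stood at 1231, 1069, 1225 and 724 CPM in D-gal + PBS mice and at 669, 723, 1139 and 417 CPM in D-gal + MSCs mice. D-gal + MSCs mouse 3 lay within the range of the D-gal + PBS mice, and D-gal + PBS mouse 4 was level with D-gal + MSCs mice 1 and 2. Over the 45 pairs of members, the Pearson r of log2 CPM over 8 mice ran from 0.50 (Col1a1 with Serpinh1) to 0.997, with a median of 0.88. For deviations from the group means it ran from 0.36 to 0.99, with a median of 0.87. The deviations of Serpinh1 had an r of only 0.36 to 0.48 with those of the other 9 genes. Those of Loxl1 had an r from 0.38 (Loxl2) to 0.77 (Col3a1) with the genes other than Serpinh1. Against the mean of the other 9 genes, Serpinh1 (r = 0.65) and Loxl1 (r = 0.76) went along least and Col3a1 and Col5a2 (r = 0.98 each) most. These values describe 8 libraries that share scaling and composition.

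Ratios of counts within a library do not depend on scaling, and 8 of them were tested between the groups by exact permutation (two-sided, 70 assignments, smallest possible p 0.0286). Col1a1 to Col1a2, the chains of 1 molecule, was 0.501 ± 0.0692 in D-gal + PBS mice and 0.518 ± 0.0176 in D-gal + MSCs mice (SD, n = 4, exact p = 0.714). Col5a2 to Col5a1 was 1.14 ± 0.165 and 1.12 ± 0.0332 (SD, n = 4, exact p = 0.83). The balance of chains within collagen I and collagen V thus differed by less than the spread between mice. Col3a1 to Col1a1 was 3.16 ± 1.09 and 2.68 ± 0.460 (SD, n = 4, exact p = 0.543), highest in D-gal + PBS mouse 4 at 4.64. Serpinh1 to Col1a1 was 1.00, 2.04, 1.06 and 4.48 in D-gal + PBS mice and 1.58, 2.04, 1.08 and 1.67 in D-gal + MSCs mice (exact p = 0.83). D-gal + PBS mouse 4 thus held the most chaperone counts for its collagen I. The smallest p of the 8 was 0.514 by the exact test (Sparc to Col1a1), and after adjustment over the 8 ratios every p was 0.914. Given the smallest possible p, a lone ratio that fully separated the groups could not have passed an adjusted p under 0.05 over 8 ratios.

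Other genes of the fibril pathway were taken from lists by role, and in each list 0 genes passed an adjusted p under 0.05 in edgeR. Of the 5 other fibril-forming chains in the table (of 6 listed), 1 was lower at an unadjusted p under 0.05 and 0 higher, with a median log2 fold change of -0.43. That gene was Col5a3, the third chain of collagen V, at 33.3 ± 7.90 CPM in D-gal + PBS mice and 24.7 ± 3.68 CPM in D-gal + MSCs mice (SD, n = 4, log2 fold change -0.43). The count was 0 without D-gal + PBS mouse 1 or 2 or without D-gal + MSCs mouse 2 or 4, and without D-gal + PBS mouse 1 or D-gal + MSCs mouse 4 it was 1 higher. Col24a1, a minor fibril collagen of bone, had a log2 fold change of 0.74 (edgeR unadjusted p = 0.0679, adjusted p = 0.496). Of the 6 fibril-associated collagens in the table (of 10), 0 were lower and 0 higher, with a median of -0.18 that ran from -0.46 without D-gal + MSCs mouse 3 to -0.01 without D-gal + PBS mouse 3. Col22a1, a collagen of the muscle-tendon junction, had a log2 fold change of 0.61 (edgeR unadjusted p = 0.148, adjusted p = 0.610).

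Of 22 genes of procollagen hydroxylation, folding and export in the table (of 23), 1 was lower at an unadjusted p under 0.05 and 0 higher, with a median of -0.20. That count was 7 without D-gal + MSCs mouse 3, 6 without D-gal + PBS mouse 4, 6 with library totals alone, 2 without D-gal + MSCs mouse 2, and 0 without D-gal + PBS mouse 2 or 3 or D-gal + MSCs mouse 1 or 4. The lower one was Creb3l1, a transcription factor of the endoplasmic reticulum that drives collagen genes in bone, with a log2 fold change of -0.58. P4hb, the protein disulfide isomerase that is also a subunit of prolyl hydroxylase, was the most abundant at 205 ± 9.82 and 177 ± 14.9 CPM (SD, n = 4, log2 fold change -0.21). Of the 6 genes of propeptide removal and other cross-linking (of 11), 2 were lower and 0 higher, with a median of -0.41, and 1 was lower without D-gal + PBS mouse 1 or 3 or D-gal + MSCs mouse 1, 2 or 4. Adamts2, which cuts the amino-terminal propeptide, stood at 14.2 ± 1.45 CPM in D-gal + PBS mice and 8.16 ± 3.03 CPM in D-gal + MSCs mice (SD, n = 4), without overlap between the groups. The log2 fold change of Adamts2 was -0.80 (SE 0.24, edgeR unadjusted p = 0.00588, adjusted p = 0.237). Pcolce, which speeds the removal of the carboxy-terminal propeptide, had a log2 fold change of -0.59 (edgeR unadjusted p = 0.0312, adjusted p = 0.415).

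Of 15 proteoglycans and glycoproteins of the fibril surface, all in the table, 3 were lower at an unadjusted p under 0.05 and 0 higher, with a median of -0.32. Of the 15 estimates 12 were negative and 3 positive, from -0.80 to 0.84. The count and the median turned on single mice, with 8 lower and a median of -0.90 without D-gal + MSCs mouse 3, 1 lower and 1 higher without D-gal + PBS mouse 1 or D-gal + MSCs mouse 2, and a median of -0.07 without D-gal + MSCs mouse 4. Dcn, encoding decorin, which coats fibrils, stood at 662 ± 188 and 415 ± 121 CPM (SD, n = 4, log2 fold change -0.67). Tnxb, encoding tenascin X, which links fibrils, had a log2 fold change of -0.69 (edgeR unadjusted p = 0.00625, adjusted p = 0.243). Of 11 elastic fibre genes (of 12), whose elastin is the other substrate of the lysyl oxidases, 1 was lower and 0 higher, with a median of -0.23. The median ran from -0.52, with 5 lower, without D-gal + MSCs mouse 3 to -0.04 without D-gal + PBS mouse 3. The gene that was lower with all mice was Efemp1, encoding fibulin-3, with a log2 fold change of -0.82 (edgeR unadjusted p = 0.00311, adjusted p = 0.205), which DESeq2 called at an adjusted p of 0.0332.

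Of 9 genes of collagen breakdown and its inhibitors in the table (of 13), 3 were lower at an unadjusted p under 0.05 and 0 higher, and all 9 estimates were negative, with a median of -0.52. The count was 7 without D-gal + MSCs mouse 3, 6 without D-gal + PBS mouse 4, 1 without D-gal + PBS mouse 1 or 3, and 0 without D-gal + PBS mouse 2 and D-gal + MSCs mouse 4 together. Mmp9, a gelatinase also carried by neutrophils and macrophages, stood at 3.49 ± 2.21 and 1.17 ± 0.376 CPM (SD, n = 4). Its log2 fold change was -1.58 (SE 0.46, edgeR unadjusted p = 0.00511, adjusted p = 0.231), and DESeq2 called it at an adjusted p of 0.0344. Timp2, an inhibitor of these proteases, stood at 135 ± 24.5 and 90.7 ± 28.0 CPM (SD, n = 4, log2 fold change -0.58). Of 19 genes of TGF-β signalling (of 20), the main signal for collagen synthesis, 2 were lower and 0 higher, with a median of -0.12. They were Smad3, the transcription factor of this pathway, with a log2 fold change of -0.51, and Tgfbi, a secreted target, with -0.61. The count was 0 without D-gal + MSCs mouse 1, 1 without D-gal + PBS mouse 2 or 3 or D-gal + MSCs mouse 4, and 4 with library totals alone.

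The 8 other genes whose log2 CPM followed the mean of the 10 most closely over the 8 mice were Chtf8 (Pearson r = 0.991), Cd248 (0.987), Elovl1 (0.986), Scara5 (0.986), Tuba1b (0.985), Anxa2 (0.983), Col6a1 (0.982) and Tpm4 (0.981). Cd248 and Scara5 are surface proteins of stromal cells, and Col6a1 encodes a chain of the microfibrillar collagen VI. Cd248 stood at 8.62 ± 2.50 CPM in D-gal + PBS mice and 5.05 ± 3.12 CPM in D-gal + MSCs mice (SD, n = 4). The likeness is over 8 points picked as the highest among all genes and has no p.

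Since fibrillar collagen is made mainly by fibroblasts and tendon cells, marker lists of cell types were read in the same libraries. All 11 fibroblast markers were in the table and had negative log2 fold changes, with a median of -0.52, and 6 were lower at an unadjusted p under 0.05 and 0 higher. None passed an adjusted p under 0.05 in edgeR, and DESeq2 called 4, namely Smoc2, Clec3b, Dpt and Gsn. The summed level was 1688 to 2808 CPM in D-gal + PBS mice and 950 to 1979 CPM in D-gal + MSCs mice. With a mouse left out, the count ran from 4 (without D-gal + PBS mouse 1 or D-gal + MSCs mouse 2) to 10 (without D-gal + MSCs mouse 3) and the median from -0.38 (without D-gal + MSCs mouse 4) to -0.88 (without D-gal + MSCs mouse 3). The list shares Dcn and Lum with the fibril-surface list and Mfap5 with the elastic fibre list. In bulk muscle, fewer fibroblasts and less RNA per fibroblast cannot be told apart.

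All 7 tendon cell markers were in the table, 3 of them (Fmod, Thbs4 and Comp) also on the fibril-surface list. At an unadjusted p under 0.05, 0 were lower or higher. Their median log2 fold change of -0.15 changed sign with single mice, from -1.13 without D-gal + MSCs mouse 3 to 0.19 without D-gal + PBS mouse 3, and was 0.07 without D-gal + PBS mouse 1 and 0.07 without D-gal + MSCs mouse 4. Their summed level was 308, 47.0, 358 and 85.1 CPM in D-gal + PBS mice and 90.6, 136, 396 and 51.7 CPM in D-gal + MSCs mice. The highest sums were in D-gal + PBS mice 1 and 3 and D-gal + MSCs mouse 3, the same 3 mice with the highest Col1a1, Col1a2, Lox and Sparc. D-gal + PBS mouse 2 had the lowest tendon sum of all 8 mice with the highest Col5a1. How much tendon each piece of QUAD held is given by no label, and its part in the spread of the 10 genes was not tested.

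Of 10 macrophage markers, 2 were lower at an unadjusted p under 0.05 (Mrc1 and Lyz2) and 0 higher, with a median log2 fold change of -0.66 and 9 of 10 estimates negative. The count was 9 without D-gal + MSCs mouse 3, 1 without mouse 4 of either group, and 0 without D-gal + PBS mouse 1 or 2 or D-gal + MSCs mouse 1 or 2. Their sum was 104 to 174 CPM in D-gal + PBS mice and 60.8 to 162 CPM in D-gal + MSCs mice, highest among the latter in mouse 3. Endothelial markers had a median log2 fold change of 0.29, with 2 of 7 higher at an unadjusted p under 0.05, smooth muscle and pericyte markers one of 0.38, with 1 of 7 higher, and Schwann cell markers one of 0.45, with 1 of 4 higher. The endothelial count was 0 without D-gal + PBS mouse 2, without D-gal + MSCs mouse 1 or 3 and with library totals alone, and 1 without D-gal + PBS mouse 4, and the median was 0.11 without D-gal + PBS mouse 4 and 0.11 without D-gal + MSCs mouse 3. The smooth muscle and pericyte count was 2 without D-gal + PBS mouse 2, and 0 without D-gal + MSCs mouse 3 and with library totals alone. The Schwann cell count was 2 without D-gal + PBS mouse 2. Of 8 muscle fibre markers, 1 was lower and 1 higher, with a median log2 fold change of -0.28 and 7 of 8 estimates negative. The count lower was 2 without D-gal + PBS mouse 2 or 3 or D-gal + MSCs mouse 4, and 6 with library totals alone. Their sum showed muscle in every library, at 96475.9 to 126797 CPM in D-gal + PBS mice and 80089.7 to 101037 CPM in D-gal + MSCs mice. Of 5 adipocyte markers in the table (of 6), 4 had negative estimates, with a median log2 fold change of -2.49, and 0 were lower or higher at an unadjusted p under 0.05. Without D-gal + PBS mouse 2, which had the highest adipocyte sum at 620.02 CPM, the median was 0.09. The part of these cell types in the result was not tested.

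**Figure D5:**
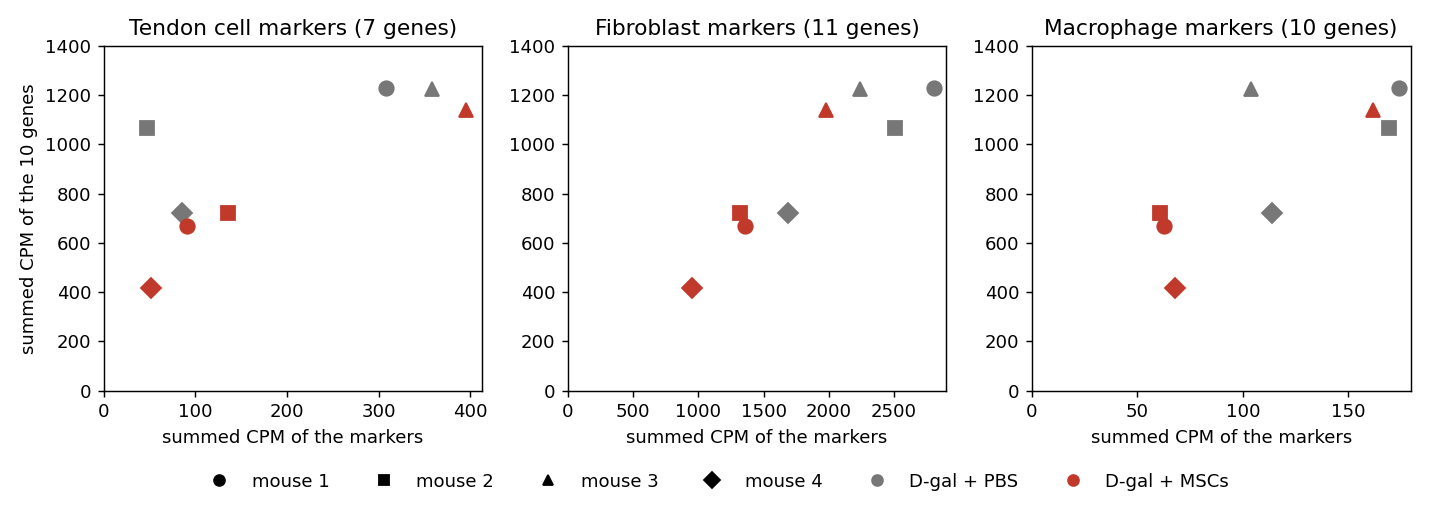
Summed level of the 10 genes against the summed level of tendon cell, fibroblast and macrophage markers, in CPM on all axes. Each point is a mouse (marker shape gives the mouse number, grey D-gal + PBS, red D-gal + MSCs). D-gal + MSCs mouse 3 (1139 CPM for the 10 genes) has the highest tendon sum (396 CPM) and fibroblast (1979 CPM) and macrophage (162 CPM) sums within the D-gal + PBS range, and D-gal + PBS mouse 2 has high fibroblast and low tendon sums.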

How the data were processed

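QUAD RNA from 4 D-gal + PBS and 4 D-gal + MSCs mice was analysed. The authors aligned the reads to GRCm39 with HISAT2 and deposited raw counts per gene in 1 table. How reads were counted, with which annotation and strand, is not given in the sources used here. Without strand, overlapping genes cannot be told apart. Counts were analysed in R 4.3.3 with edgeR 4.0.16. filterByExpr removed 0 of 12171 genes, factors came from TMM (0.760 to 1.14), and a robust quasi-likelihood F test had group as its only term. Adjusted p-values are Benjamini-Hochberg values across the whole table, and the code were tested on simulated data. Where nothing else is stated, a count of genes uses an unadjusted p under 0.05. Log2 CPM used a prior count of 2. Alternatives were DESeq2 1.42.0, limma-voom (limma 3.58.1), other scaling factors and filters, the replicate number as a block, each library left out, and ratios of mean counts.
The members, lists and tests were chosen with earlier results of these data known. All 10 members are named. From each pathway list the most abundant gene and up to 2 with the smallest p were eligible, and the genes most like the members were the 8 with the highest r. Marker genes, Hspa1a and the heat shock list were named outside this rule, after their values were seen. Transcript lengths are from GENCODE vM21.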

Additional observations from a re-analysis of the deposited data

Results flagged for a closer look

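Of 36 groups of 4 values examined (the CPM of 10 genes and 8 ratios, each in both groups), 2 held a value set apart from the other 3. Chance sets apart about 1 in 20 such groups. Loxl1 in D-gal + MSCs mouse 3 was at 21.5 CPM while the other 3 mice of the group were at 9.11 to 9.87 CPM, a gap of 0.938 of the range. The ratio of Lox to Col1a1 in D-gal + PBS mouse 4 was 0.381 while the other 3 mice of the group were at 0.219 to 0.241, a gap of 0.865 of the range.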

How the results depend on the processing

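In 19 alternatives all 190 log2 fold changes of the 10 genes stayed negative and 0 reached an adjusted p under 0.05, the smallest being 0.0772 without D-gal + MSCs mouse 3. Genes lower at an unadjusted p under 0.05 numbered 4 in edgeR, 0 to 7 with a library left out, 0 without D-gal + PBS mouse 2 and D-gal + MSCs mouse 4 together, and 4 without mouse 4 of both groups, an alternative chosen after seeing the data. With a change of 0.5 or more on the log2 scale required as well, the count was 3 in edgeR, 5 with limma-voom, 5 with library totals alone, 0 to 7 with a library left out, 0 without D-gal + PBS mouse 2 and D-gal + MSCs mouse 4, and 1 without mouse 4 of both groups. The cause was not tested. Over all genes, the share lower at an unadjusted p under 0.05 was 3.53% to 6.02% with a library left out. It was 2.83% without D-gal + PBS mouse 2 and D-gal + MSCs mouse 4, and 3.94% without mouse 4 of both groups. With that change required as well, 373 of all genes were lower in edgeR, 397 with limma-voom, 761 with library totals alone and 273 to 526 with a library left out. Nothing in the labels makes a replicate number a shared litter or day. Same-numbered mice had correlations of -0.003, 0.156, 0.100 and 0.218 of their deviations, and not every mouse correlated best with its own number. With the replicate number as a block, 9 of the 10 genes were lower at an unadjusted p under 0.05, beside 6.58% of all genes. With that change required as well, 8 of the 10 were lower, beside 426 of 12171 genes. At an adjusted p under 0.05, 0 of the 10 passed (smallest 0.0965), and edgeR called 78 of all genes. The ratios could not pass in any alternative, since the smallest two-sided p was 0.0571 over the 35 assignments left without a library and 0.125 over the 16 sign patterns of the block, and ratios of mean counts have no test. Log2 ratios with a library left out changed sign for Col1a1 to Col1a2 (-0.0323 to 0.1315), Col3a1 to Col1a1 (-0.3613 to 0.0133), Col5a1 to Col1a1 (-0.1492 to 0.3122), Col5a2 to Col5a1 (-0.1021 to 0.0665), Serpinh1 to Col1a1 (-0.4579 to 0.2617), Lox to Col1a1 (-0.1818 to 0.1318) and Loxl2 to Loxl1 (-0.0994 to 0.331). Lox to Col1a1 was 0.0831 as a ratio of mean counts and -0.0454 as a mean log2 ratio. The alternative without a filter left out 0 genes and tested nothing. DESeq2 called 300 of all genes where edgeR called 0 and had 1308 at an unadjusted p under 0.05. With 4 mice a group, p-values set the difference between the groups against the spread between these mice.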
